A study of Mus musculus with 18 samples.

Results

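The transcripts described here are those of 8 adrenergic receptor genes of the mouse, Adra1a, Adra1b, Adra1d, Adra2a, Adra2b, Adra2c, Adrb1 and Adrb3, in the uterus and in surgically induced endometriosis. The genes were chosen by name, as the listed genes whose symbol a probe's transcript accession maps to. No measured value entered this rule, but the list was drawn up with earlier results of these data known. They are covered by 11 of 56605 probes, 8 genes of 22911 named on the array, and all 8 had at least 1 probe well above background on 3 or more arrays. Adra1a, Adra1d and Adrb3 have 2 probes each, and the brighter one stands for the gene; the other 5 genes have 1.

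Total RNA was hybridised to 18 one-colour Agilent arrays in 6 groups of 3, and every array carries RNA pooled from 3 animals, so that each group stands for 9 animals. The control genotype is PRCre/+, a Cre driver named for the progesterone receptor; ERBOE mice are described as overexpressing oestrogen receptor beta, and the labels used here do not state the transgene's promoter. The 2 uterus groups are PRCre/+ or ERBOE females of 12 weeks at estrus, with no surgery. The 2 ectopic groups are lesions that grew from a fragment of PRCre/+ or ERBOE uterus implanted in wild-type C57BL/6J females of 8 weeks and taken at estrus in week 4; the host is wild type in both, so only the implanted fragment carries the genotype. The 2 eutopic groups come from the reverse grafts, in which PRCre/+ or ERBOE females of 8 weeks received a wild-type fragment, with the same harvest. The labels disagree in places: the source text of the ERBOE lesion and eutopic arrays speaks of no endometriosis, and the design text for the eutopic groups speaks of harvesting lesions before it names pooled eutopic endometria. Groups follow the array titles here.

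Adrenergic receptors are the membrane receptors for noradrenaline, released by sympathetic nerves, and for adrenaline from the adrenal gland. The alpha-1 receptors couple to Gq, phospholipase C and calcium and contract smooth muscle, including that of vessels and uterus; the alpha-2 receptors couple to Gi, lower cyclic AMP and restrain transmitter release; the beta receptors couple to Gs and raise cyclic AMP. Adrb1 is best known from heart and kidney, and Adrb3 from adipocytes, where it drives lipolysis, and from the smooth muscle of the bladder.

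The signal at each array's 75th percentile was 239.6 on PRCre uterus replicate 1 and 455.1 to 744.7 on the other arrays, 53.1% to 73% of probes were well above background, no spot was saturated, and arrays correlated at 0.915 to 0.977 (median within groups 0.955). Esr2, the gene of oestrogen receptor beta, was not higher in the ERBOE arrays by the probe tested, with log2 levels of 2.14 to 2.82 on the PRCre arrays and 2.07 to 2.75 on the ERBOE arrays. Its fitted differences, ERBOE minus PRCre, were -0.24 (uterus), 0.01 (eutopic endometrium) and -0.26 (lesions) (limma, adjusted p = 0.723, 1 and 0.993). A second Esr2 probe passed background on 1 array, and whether either probe can detect the transgene is not stated. ERBOE therefore means, throughout, the arrays so labelled. In bulk RNA, fewer cells of a type and less RNA per cell cannot be told apart.

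All levels below are log2 signals relative to the array's own 75th percentile, so that 0 is that percentile and 1 unit is a doubling; they compare arrays for 1 probe, not genes with each other. Tests are limma's, with p-values adjusted over 33185 features and a threshold of 0.05.

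**Figure D1:**
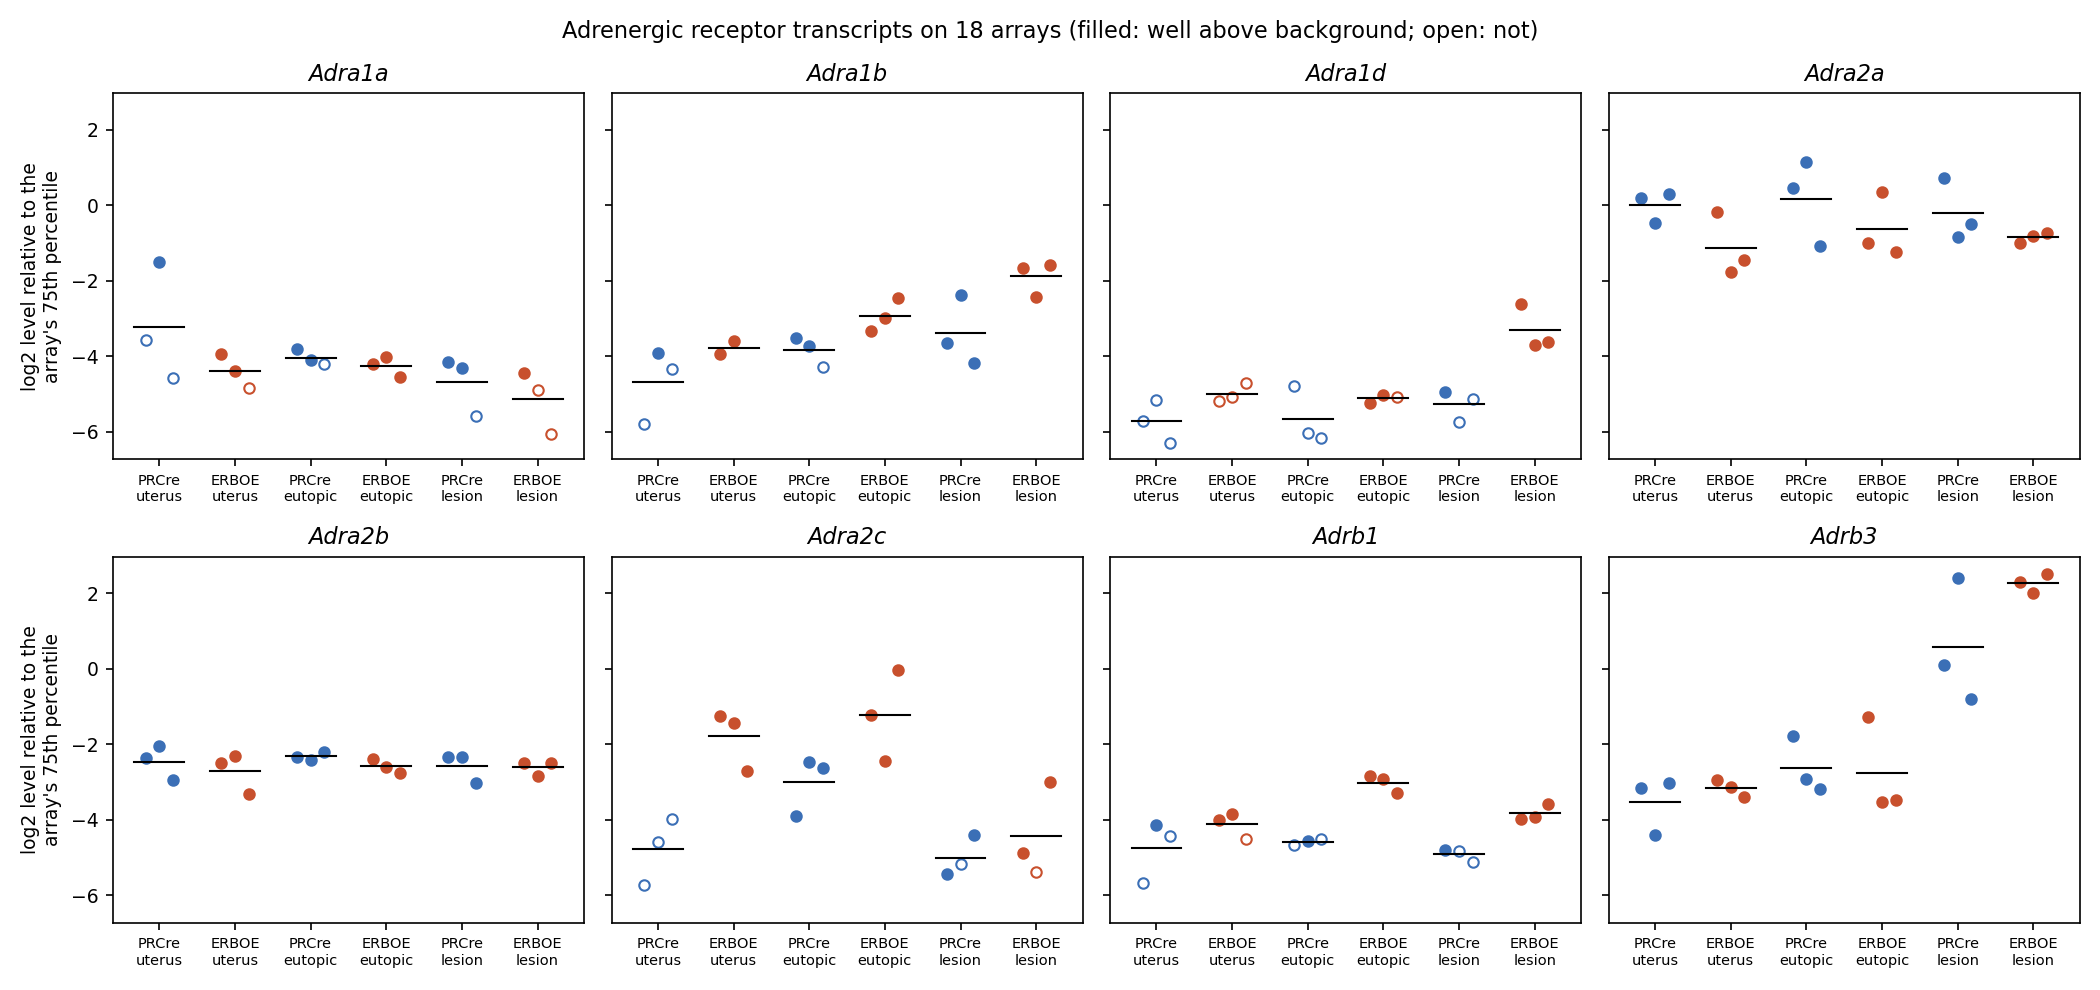
Log2 level (y axis, relative to each array's 75th percentile) of the probe that stands for each receptor gene in the 6 groups (x axis); points are arrays in the order of their replicate number, filled where well above background and open where not, and bars are group means. Adrb3 lies between -0.80 and 2.52 on the 6 lesion arrays and at or below -1.28 on the other 12; 1 Adra1b spot in the ERBOE uterus is missing because the scanner software marked it as an outlier.

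The receptor genes Adra2c and Adrb1, whose ERBOE arrays all lay above the PRCre arrays in eutopic endometrium, are shown with the 250 bases before their annotated start, since the genotype concerns an oestrogen receptor; this pair was picked after their values were seen. Adra1b met the same criterion and is not printed; of its 2 windows 1 holds the core described here. The sequences are RefSeq's, build GRCm38.p6, plus strand, 5′ to 3′, and capitals mark GGTCA, the core of the oestrogen response element, on either strand. Adra2c is chr5:35278316-35278565 and Adrb1 is chr19:56721867-56722116.
Adra2c: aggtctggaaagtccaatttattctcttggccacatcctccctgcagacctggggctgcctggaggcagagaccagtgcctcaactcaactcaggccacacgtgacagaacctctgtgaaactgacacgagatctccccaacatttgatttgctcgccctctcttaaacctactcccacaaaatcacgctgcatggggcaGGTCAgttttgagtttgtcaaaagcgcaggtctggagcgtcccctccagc
Adrb1: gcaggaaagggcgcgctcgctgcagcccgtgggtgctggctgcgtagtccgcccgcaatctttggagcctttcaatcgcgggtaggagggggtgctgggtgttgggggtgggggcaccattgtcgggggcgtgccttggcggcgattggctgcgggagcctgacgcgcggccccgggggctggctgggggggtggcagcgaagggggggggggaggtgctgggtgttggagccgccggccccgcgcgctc
The Adra2c window holds 1 such core, which ends 45 bases before the start, and the Adrb1 window holds 0, as far as these letters go. Of 32851 promoter windows of the same length, 35.2% hold the core, 0.0639% the full element GGTCANNNTGACC and 1.55% the cyclic AMP response element TGACGTCA; neither window holds either of the last 2. The Adrb1 window is 74% G or C and the Adra2c window 53.6%. RefSeq's table matched 5 of the 8 genes.

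Of all receptor genes, only a beta receptor gene passed the test in any comparison. Adrb3 transcripts rose in ERBOE lesions against both ERBOE eutopic endometrium and ERBOE uterus. On the 3 ERBOE lesion arrays its level was 2.29, 2.01 and 2.52. On the ERBOE eutopic arrays it was -1.28, -3.54 and -3.47, and in the ERBOE uterus -2.96, -3.13 and -3.39. Every lesion array lay far above every array of the other 2 tissues, and the first ERBOE eutopic array was the highest of those. The difference from eutopic endometrium was 5.04 ± 0.73 (SE), 32.8-fold, with an adjusted p of 0.00581, and that from the uterus was 5.43 ± 0.73, 43.2-fold, with an adjusted p of 0.00265. Both comparisons share the ERBOE lesion arrays. Adrb3 was the 1 receptor gene of 8 called in each, where 0.6% and 1.24% of all features were called.

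In the PRCre lesions Adrb3 spread more widely, at 0.09, 2.40 and -0.80. The PRCre eutopic arrays read -1.78, -2.93 and -3.18, and the PRCre uterus arrays -3.16, -4.42 and -3.04. Again no lesion array overlapped with either tissue, but replicate 2 was far above the other lesion arrays, level with those of ERBOE. The difference was 3.19 ± 0.73 from eutopic endometrium (adjusted p = 0.345) and 4.10 ± 0.73 from the uterus (adjusted p = 0.0613), and neither passed. Over all features 0.00301% and 0.00904% were called in these comparisons, and 0 of 8 receptor genes. Without PRCre ectopic replicate 3 the second difference was 4.78 and passed (adjusted p = 0.0262), without replicate 2 of that group it was 3.18 (adjusted p = 0.265), and without ERBOE eutopic replicate 1, through the shared variance, it passed at 4.10 (adjusted p = 0.0426). Over the 30 alternatives that did not replace the brighter probe by the other, its adjusted p ran from 0.0231 to 0.654. With the mean of both probes the difference was 2.60, and with the other probe alone 1.11 (adjusted p by limma 0.676).

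Between genotypes, Adrb3 in lesions was 1.71 ± 0.73 higher in ERBOE (95% interval 0.15 to 3.28; unadjusted p = 0.0343, adjusted p = 0.993), and the groups overlapped through the second PRCre array. This value rests on single PRCre arrays: it was 2.63 without PRCre ectopic replicate 2 and 1.03 without replicate 3. The genotype difference was 0.38 in the uterus and -0.13 in eutopic endometrium. Neither test of whether the genotype difference in lesions exceeded that in the other tissues passed: the excess was 1.84 ± 1.04 over eutopic endometrium (unadjusted p = 0.0956) and 1.33 ± 1.04 over the uterus (unadjusted p = 0.218). In the order of group means, the ERBOE lesions came first, then PRCre lesions; the 4 other groups, at -2.63 to -3.54, did not differ beyond their spread.

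The arrays lay on 3 slides, and slide was crossed only in part with the groups. With slide as a block, Adrb3 in ERBOE lesions differed by 5.15 from eutopic endometrium (adjusted p = 0.0105) and by 5.43 from the uterus (adjusted p = 0.00501). Within slides the difference from the ERBOE uterus was 5.40, 5.65 and 5.25 on slides 1, 2 and 3. That from ERBOE eutopic endometrium was 3.80 on slide 2 and 5.80 on slide 3; slide 1 holds no eutopic array.

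The other Adrb3 probe was dim outside the lesions: it was well above background on 6 arrays, all 3 ERBOE lesion arrays, PRCre lesion replicates 1 and 2, and ERBOE eutopic replicate 1. It read -1.53, -2.57 and -1.82 in ERBOE lesions and -3.56, -2.49 and -6.51 in PRCre lesions. The order of the lesion arrays thus resembled that of the brighter probe, with PRCre replicate 3 lowest in both. Its differences in ERBOE were 3.71 ± 0.86 from eutopic endometrium (adjusted p = 0.0769) and at least 6.34-fold from the uterus (adjusted p = 0.0639), so the calls rest on the brighter probe.

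**Figure D2:**
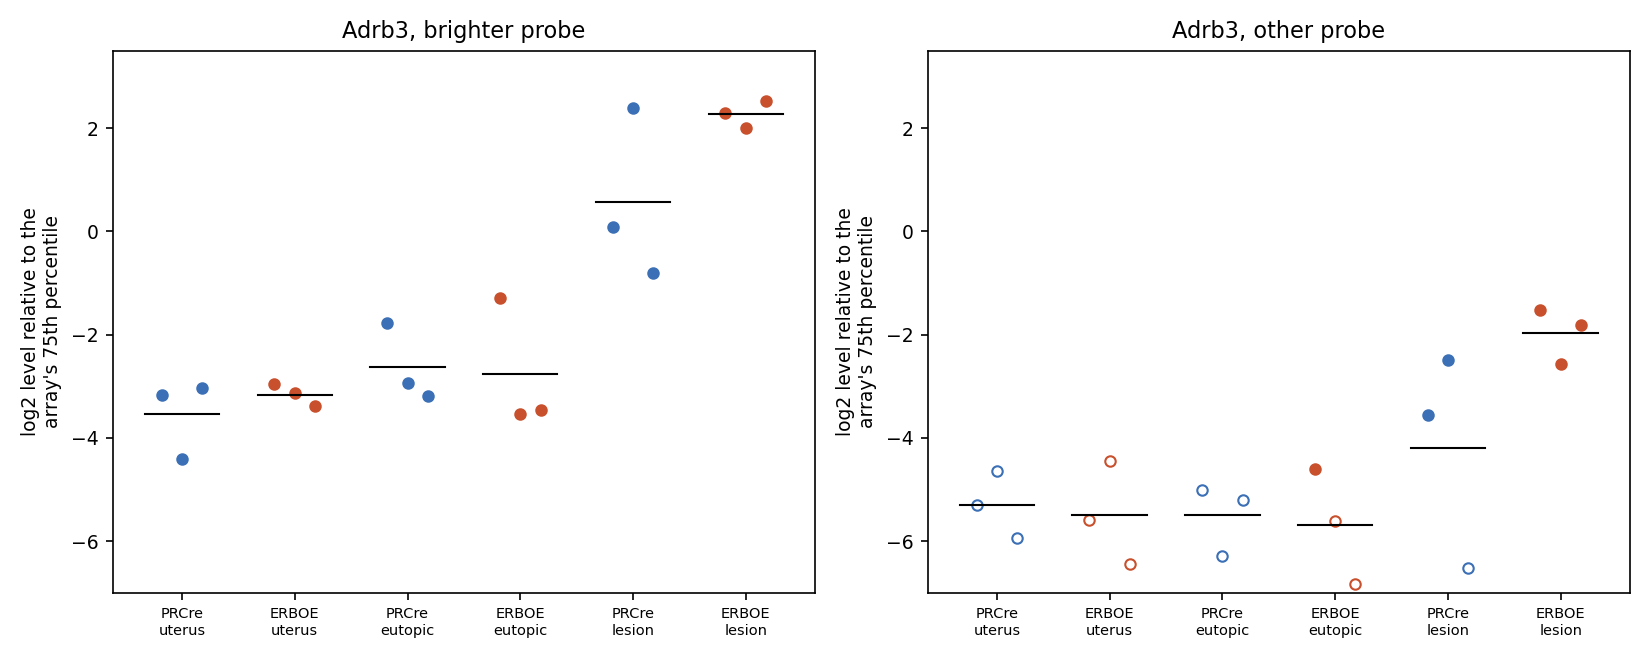
Log2 level (y axis) of both Adrb3 probes in the 6 groups (x axis), drawn as in the plot of all receptor genes. In ERBOE lesions the brighter probe reads 2.01 to 2.52 and the other -2.57 to -1.53; open points, which are not well above background, make up all uterus arrays of the other probe.

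White adipocyte markers moved with Adrb3. All 10 markers listed were tested (Adipoq, Plin1, Cidec, Cfd, Fabp4, Retn, Pparg, Lipe, Pnpla2 and Lep), and 7 of 10 rose in ERBOE lesions against eutopic endometrium and 7 of 10 against the uterus, where 0.6% and 1.24% of all features were called. Their median differences were 6.89 and 8.13, beside -0.13 and -0.07 for all features. Their mean level per array was -3.57 to -1.92 in the 2 uterus groups, -3.31 to 0.28 in the 2 eutopic groups, 1.21 to 3.27 in PRCre lesions and 3.30 to 3.75 in ERBOE lesions. Summed on the linear scale, where 1 is the array's 75th percentile, the markers came to 3.78 to 7.59 in the uterus groups, 3.58 to 34.8 in the eutopic groups, 93.7 to 426.8 in PRCre lesions and 405.2 to 625.2 in ERBOE lesions. Plin1, which coats the lipid droplet, was well above background on no uterus array, on 2 of 3 arrays in each eutopic group and on every lesion array. Lep, the leptin gene, was flat, at -2.10 to -2.44 in all 6 group means.

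The arrays with a high marker mean were those with high Adrb3 levels. PRCre lesion replicate 2, the highest in Adrb3 of its group, had a marker mean of 3.27, and replicate 3, the lowest, had 1.21. ERBOE eutopic replicate 1 and PRCre eutopic replicate 1, the highest of the eutopic arrays in Adrb3, had marker means of 0.28 and 0.17, while the other 4 eutopic arrays lay at or below -1.80. Among the arrays with low levels the orders differed: ERBOE uterus replicate 1 had the highest Adrb3 level of its group, -2.96, and the lowest marker mean of all arrays, -3.57. The part of adipocytes in the Adrb3 difference was not tested. Of the brown adipocyte list, 5 genes were tested. None was called in any comparison (adjusted p by limma), where 0% to 1.24% of all features were called. Ucp1, which defines brown fat, was well above background on no array.

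**Figure D3:**
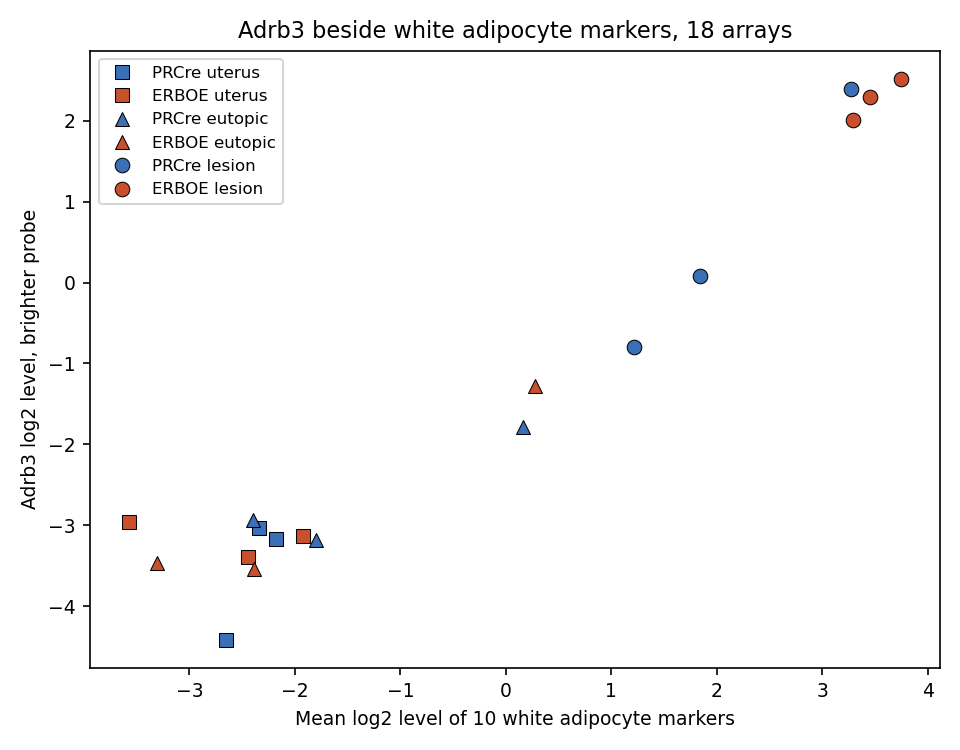
Adrb3 log2 level by the brighter probe (y axis) against the mean log2 level of 10 white adipocyte markers (x axis) on the 18 arrays, coloured by genotype and shaped by tissue. Marker means run from -3.57 to 3.75, with the ERBOE lesions and 1 PRCre lesion array at 3.27 or more. The highest array of each eutopic group, at 0.17 (PRCre) and 0.28 (ERBOE), lies below the lesion arrays, which start at 1.21.

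The genes whose levels followed Adrb3 most closely over the 18 arrays were Apoc1, an apolipoprotein gene (Pearson r = 0.986), Slc7a10, an amino acid transporter gene known from adipocytes and astrocytes (0.977), and Flacc1 (0.977); these are descriptions over arrays that share the lesion contrast.

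Adrb1, the beta-1 receptor, was well above background on 11 of 18 arrays. In ERBOE eutopic endometrium it read -2.85, -2.91 and -3.29, and in PRCre eutopic endometrium -4.66, -4.57 and -4.52, of which only the second was well above background. In ERBOE lesions it read -3.98, -3.92 and -3.58, and in PRCre lesions -4.82, -4.83 and -5.12, of which only the first was. In both tissues every ERBOE array lay above every PRCre array. The difference was 1.57 ± 0.32 in eutopic endometrium (unadjusted p = 0.000241, adjusted p = 0.761), and 1.09 ± 0.32 in lesions (unadjusted p = 0.00433, adjusted p = 0.898), so neither passed. Within slides it was 1.67 and 1.51 in eutopic endometrium (slides 2 and 3) and 1.20 and 1.25 in lesions (slides 1 and 2).

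In the uterus the groups overlapped, at -3.997, -3.85 and -4.52 for ERBOE and -5.67, -4.14 and -4.42 for PRCre. Only the first 2 ERBOE arrays and the second PRCre array were well above background. The difference was 0.62 ± 0.32 (limma, unadjusted p = 0.074). Within slides it was -0.10, 0.29 and 1.68 on slides 1, 2 and 3, and the slide 3 value rests on the PRCre array at -5.67. The genotype difference in eutopic endometrium exceeded that in the uterus by 0.94 ± 0.46 (unadjusted p = 0.0581, adjusted p = 0.961). Within ERBOE, eutopic endometrium was 1.11 ± 0.32 above the uterus (unadjusted p = 0.00402, adjusted p = 1) and lesions were 0.81 ± 0.32 below eutopic endometrium (unadjusted p = 0.0249, adjusted p = 0.379). Under normexp background correction the genotype difference was 0.64 in eutopic endometrium and 0.47 in lesions. The order of group means was ERBOE eutopic, ERBOE lesions, ERBOE uterus and then the 3 PRCre groups, at -4.58 to -4.92; the PRCre lesion arrays all lay below the PRCre eutopic ones, by 0.34 ± 0.32 in the mean (adjusted p = 1). Necab2 (0.792), Adck1 (0.789) and Dgke (0.784) were most like it by Pearson r.

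**Figure D4:**
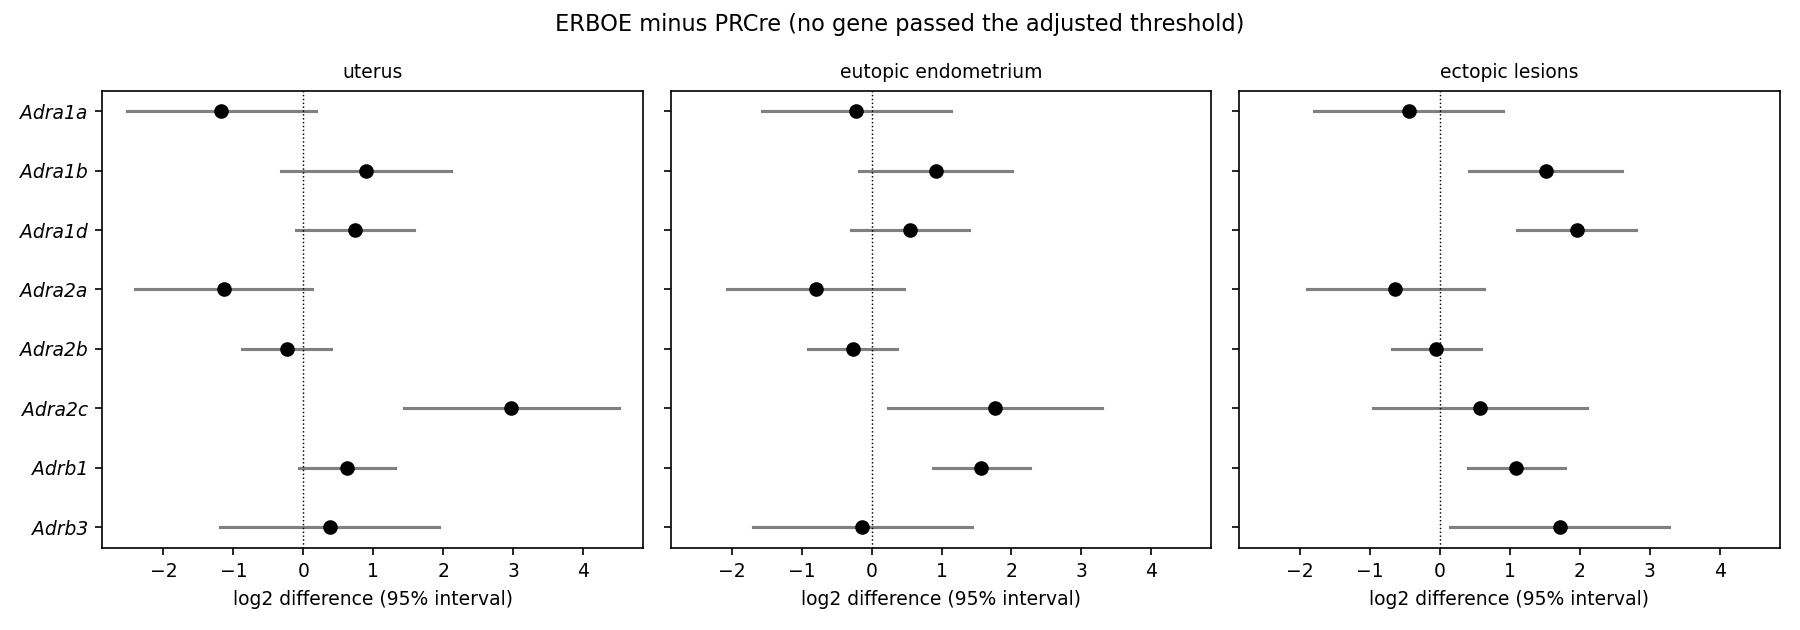
Log2 difference, ERBOE minus PRCre (x axis), of the 8 receptor genes (y axis) in uterus, eutopic endometrium and ectopic lesions, with limma's 95% intervals from 18 arrays. No gene passed the adjusted threshold; intervals clear of 0 are those of Adra2c in uterus and eutopic endometrium, Adrb1 in eutopic endometrium and lesions, and Adra1b, Adra1d and Adrb3 in lesions.

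Counted over the 8 genes, the genotype comparisons called 0, where 0% of all features were called in each of the 3 tissues. At an unadjusted p under 0.05 they gave 1 gene in uterine arrays (9.88% of all features), 2 in eutopic arrays (2.95%) and 4 in lesion arrays (4.46%), each of them higher in ERBOE. The ERBOE arrays all lay above the PRCre arrays for 1 gene in uterine tissue without surgery (6.36% of all features), 3 in eutopic tissue (5.13%) and 2 in lesions (5.2%). The median difference over the 8 genes was 0.50, 0.21 and 0.83, beside -0.11, -0.01 and -0.06 over all features. The uterus value depends a little on scaling, since quantile normalization moved the median of all features there by 0.109, to -0.00168.

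The alpha-2 receptors differed from each other. Adra2c, known as a presynaptic receptor that restrains noradrenaline release, was low in the PRCre uterus and high in the ERBOE uterus. It read -1.24, -1.44 and -2.71 on the ERBOE uterus arrays, and -5.73, -4.60 and -3.98 on the PRCre uterus arrays, none of which was well above background. On the processed signal the ERBOE uterus was thus at least 4.7-fold higher (unadjusted p = 0.000912, adjusted p = 0.275), which did not pass, and the groups did not overlap. Under normexp background correction, which adds an offset of 50, the log2 difference was 1.20 (adjusted p = 0.279). In eutopic endometrium it read -1.23, -2.45 and -0.03 in ERBOE and -3.91, -2.48 and -2.62 in PRCre, a difference of 1.76 ± 0.72 (unadjusted p = 0.0269, adjusted p = 1). The eutopic groups did not overlap, but the second array of each genotype differed by little, and without ERBOE eutopic replicate 3 the difference was 1.16.

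In lesions Adra2c was low in both genotypes, at -4.89, -5.40 and -3.02 in ERBOE and -5.44, -5.17 and -4.41 in PRCre. The second array of each lesion group was not well above background. These groups overlapped (difference 0.57 ± 0.72, limma adjusted p = 0.993). The genotype difference in lesions was smaller than that in the uterus by 2.40 ± 1.01 (unadjusted p = 0.032, adjusted p = 0.68). Lesions lay below eutopic endometrium by 3.19 in ERBOE (adjusted p = 0.0667) and by 2.00 in PRCre (adjusted p = 1), and below the uterus in ERBOE by 2.64 (adjusted p = 0.0989). None passed; without ERBOE ectopic replicate 3, the highest ERBOE lesion array, the first was -3.90 and passed (adjusted p = 0.0417). The PRCre eutopic arrays were at least 2.04-fold above the PRCre uterus (adjusted p = 0.747).

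Within slides, the Adra2c difference between ERBOE and PRCre uterus was 1.27, 3.17 and 4.49 on slides 1, 2 and 3, the same direction each time with a wide spread. The slide 3 value rests on PRCre uterus replicate 1, which read -5.73 and had the lowest 75th percentile signal of all arrays (239.6). The epithelial marker list, 8 genes tested, had group means of 4.60 in the ERBOE uterus and 3.07 in the PRCre uterus. It had 3.66 and 4.04 on the eutopic arrays and 3.42 and 3.46 on the lesion arrays, ERBOE first. None of the 8 was called between genotypes, where 0% of all features were called. In the uterus 8 of 8 were higher in ERBOE, with a median difference of 1.61. Of these, 6 had an unadjusted p under 0.05 by limma, beside 9.88% of all features. In eutopic endometrium 0 of 8 and in lesions 4 of 8 were higher in ERBOE. The part of the epithelial list in the Adra2c values was not tested. Trim46 (0.865), Rnf43 (0.862) and Asb4 (0.858) were most like Adra2c over the 18 arrays.

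Adra2a, the alpha-2 receptor best known for lowering blood pressure when activated, was well above background on every array. It read 0.20, -0.47 and 0.30 in the PRCre uterus and -0.17, -1.76 and -1.46 in the ERBOE uterus. In eutopic endometrium it read 0.46, 1.15 and -1.09 for PRCre and -0.99, 0.34 and -1.23 for ERBOE, and in lesions 0.72, -0.85 and -0.49 for PRCre and -0.99, -0.80 and -0.75 for ERBOE. The groups overlapped in all 3 tissues, with differences of -1.14 ± 0.59, -0.80 ± 0.59 and -0.64 ± 0.59. The intervals ran from -2.41 to 0.13, from -2.07 to 0.47 and from -1.91 to 0.63, so a change of either sign was not resolved. Ctsf (0.885), Tbc1d17 (0.834) and Sema6c (0.831) were most like it.

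Adra2b, a vascular alpha-2 receptor, was the flattest of the 8. Its levels ran from -3.32 to -2.06 over all 18 arrays and the 6 group means from -2.70 to -2.32. The genotype differences were -0.24, -0.27 and -0.05, each ± 0.30, and the widest of their intervals reached -0.91. Within-group spread was as large as any difference between groups. The slide 1 arrays, at -2.96, -3.32, -3.04 and -2.85, were the lowest, and every other array lay at -2.77 or above. Slide 1 holds no eutopic array. The part of slide in this spread, and in the correlations given next, was not tested. The genes most like it were Nwd1 (0.966), 3930402G23Rik (0.963) and Gm31992 (0.96).

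Adra1d and Adra1b, both alpha-1 receptor genes, each had their highest group mean in ERBOE lesions. Adra1d, a receptor that contracts vessel walls, read -2.63, -3.71 and -3.62 there, all well above background. The PRCre lesions read -4.95, -5.73 and -5.14, only the first of them well above background. The groups did not overlap and differed by 1.96 ± 0.40 as measured (unadjusted p = 0.000198, adjusted p = 0.47), which did not pass; with 2 of 3 PRCre arrays not well above background no fold is given. Under normexp background correction the difference was 0.79. On slide 1 the difference was 1.43 and on slide 2 it was 1.73.

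Elsewhere Adra1d was near background: -5.25, -5.02 and -5.07 in ERBOE eutopic endometrium, with 2 of 3 arrays well above it, -4.79, -6.04 and -6.17 in PRCre eutopic endometrium, with none, and none in either uterus group. ERBOE lesions were 1.79 ± 0.40 above ERBOE eutopic endometrium (adjusted p = 0.0599) and at least 2.73-fold above the ERBOE uterus (adjusted p = 0.0574). Both fell just short of the threshold; without PRCre eutopic replicate 1, which enters only through the shared variance, both passed (adjusted p = 0.0259 and 0.0271). PRCre lesions differed from PRCre eutopic endometrium by 0.39. The genotype difference in lesions exceeded that in eutopic endometrium by 1.41 ± 0.56 (unadjusted p = 0.0246, adjusted p = 1) and that in the uterus by 1.22 ± 0.56 (unadjusted p = 0.047, adjusted p = 0.734).

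The other Adra1d probe was well above background on 1 array, ERBOE lesion replicate 1, at -4.15. It also placed the 3 ERBOE lesion arrays, the others at -5.67 and -4.68, above the 3 PRCre lesion arrays, at -5.73, -6.35 and -6.41. In the other tissues its genotype difference had the opposite sign to that of the brighter probe: -0.34 against 0.74 in the uterus and -0.63 against 0.55 in eutopic endometrium, none of these past the threshold, and it was well above background on no array of those 4 groups. The genes most like the brighter probe were Frzb (0.859), Il1r1 (0.85) and Cav3 (0.848). The pericyte list, 7 genes tested, had group means of 0.74 to 0.90 in all 6 groups. The smooth muscle list, 10 genes, had 3.02 in ERBOE lesions and 3.39 in PRCre lesions. Neither list had a gene called in any comparison by limma's adjusted p, where 0% to 1.24% of all features were called. The endothelial list, 8 genes, had group means of 0.45 in both lesion groups and -0.48 to 0.21 in the others. In ERBOE lesions 8 of 8 of its genes were higher than in eutopic endometrium and 8 of 8 higher than in the uterus, with median differences of 0.57 and 0.88 and no call, and between the lesion groups 4 of 8 were higher in ERBOE. The part of these cell types in the Adra1d values was not tested.

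Adra1b, an alpha-1 receptor known from liver and vessels, read -1.66, -2.42 and -1.58 in ERBOE lesions and -3.64, -2.38 and -4.17 in PRCre lesions. The second PRCre array sat among the ERBOE ones, and the difference was 1.51 ± 0.51 (unadjusted p = 0.0104, adjusted p = 0.993). In eutopic endometrium it read -3.33, -2.98 and -2.46 in ERBOE and -3.52, -3.72 and -4.28 in PRCre, without overlap, a difference of 0.91 ± 0.51 (unadjusted p = 0.0942). In the uterus it read -5.79, -3.92 and -4.33 in PRCre, and -3.96 and -3.61 in ERBOE, where the third spot was dropped as an outlier. Of the PRCre uterus arrays only the second was well above background, and of the PRCre eutopic arrays the third was not. Lesions were above the uterus by 1.28 ± 0.51 in PRCre (adjusted p = 0.343; 0.72 when replicate 1 of the PRCre uterus was left out and 0.77 when lesion replicate 2 was) and by 1.89 ± 0.57 in ERBOE (adjusted p = 0.146). With the outlier spot kept, the last value was 1.03 (adjusted p = 0.61). Chst3 (0.97), Traf3 (0.901) and Vac14 (0.898) were most like Adra1b, over 17 arrays. In PRCre lesions Adra1b was highest on replicate 2 and lowest on replicate 3, as were the white adipocyte marker means (3.27 and 1.21). In ERBOE eutopic endometrium, replicate 1 had the group's highest marker mean (0.28) and its lowest Adra1b level. The part of adipocytes in the Adra1b values was not tested.

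Adra1a, the alpha-1 receptor of prostate and bladder neck, was close to background, with 11 of 18 arrays well above it. Its highest value by far was -1.50 on PRCre uterus replicate 2, against -3.57 and -4.58 on the other arrays of that group. The other groups had means of -4.04 to -5.14, with the ERBOE lesions lowest, at -4.44, -4.89 and -6.07. Lesions lay below the uterus in PRCre by 1.47 ± 0.63 (unadjusted p = 0.0343, adjusted p = 0.376), and without that array by 0.62. The other probe was well above background on 2 arrays, that same uterus array at -2.81 and PRCre eutopic replicate 3 at -3.04. Pcsk2os2 (0.915), 4930429D17Rik (0.805) and Cntn4 (0.8) were most like the brighter probe.

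**Figure D5:**
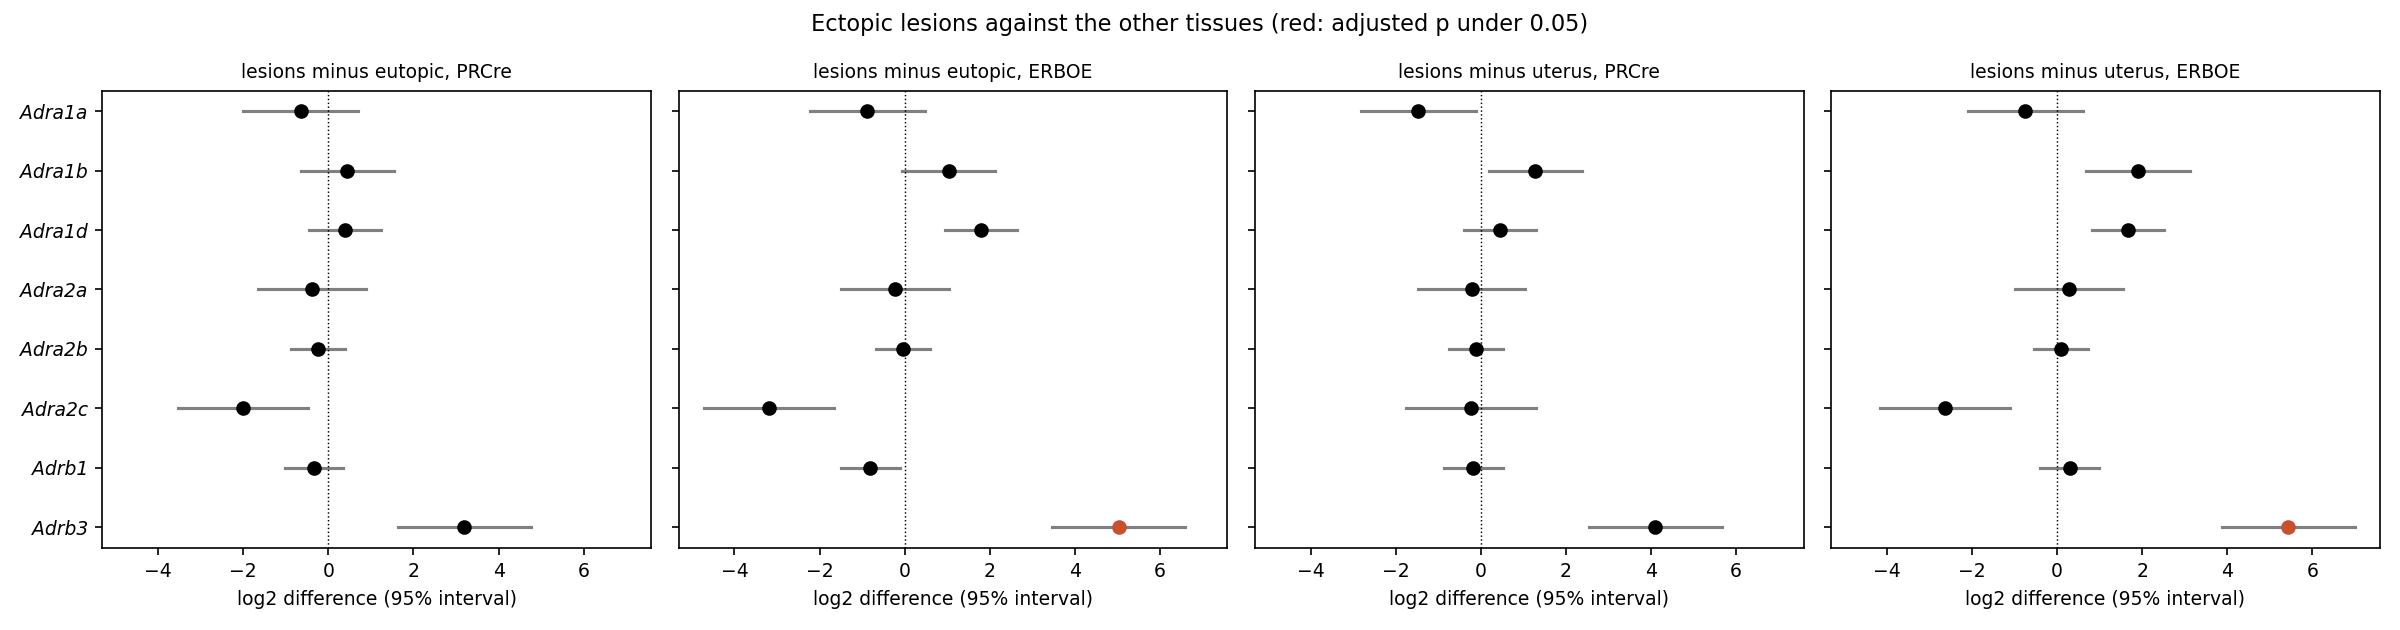
Log2 difference of ectopic lesions minus eutopic endometrium or uterus (x axis) for the 8 receptor genes (y axis) in each genotype, with limma's 95% intervals; red points passed the adjusted threshold. Only Adrb3 in ERBOE passed, at 5.04 and 5.43, with Adra2c at -3.19 and -2.64 on the other side of 0 in the same comparisons.

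Over the 8 genes, lesions against eutopic endometrium gave 2 genes at an unadjusted p under 0.05 in PRCre (3.93% of all features) and 4 in ERBOE (10.6%), and lesions against the uterus gave 3 in PRCre (11.8%) and 4 in ERBOE (11.9%). Eutopic endometrium against the uterus called 0 genes in PRCre and 0 in ERBOE, with 0% of all features called in both, and gave 1 gene in each at an unadjusted p under 0.05, beside 6.66% and 3.34%. The tests of whether the genotype difference varied between tissues called 0 genes, and 0% of all features, in each of 3 comparisons. At an unadjusted p under 0.05 they gave 1 gene for lesions against eutopic endometrium (1.65% of features), 2 for lesions against uterus (6.74%) and 0 for eutopic endometrium against uterus (5.1%).

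Downstream of the receptors, 85 of 89 listed genes of catecholamine synthesis, uptake and breakdown, G proteins, adenylyl cyclase and protein kinase A, phospholipase C and protein kinase C, receptor desensitisation, phosphodiesterases and cyclic AMP response were tested. No gene of these lists was called in a genotype comparison or in PRCre. In ERBOE lesions 3 rose against eutopic endometrium and 4 against the uterus, and none fell, where 0.6% and 1.24% of all features were called. At an unadjusted p under 0.05, 10 and 15 were higher and 6 and 5 lower, beside 10.6% and 11.9% of all features in either direction. The median difference over the lists was 0.08 and 0.16.

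Prkar2b, a regulatory subunit of protein kinase A, rose by 2.63 ± 0.40 against eutopic endometrium (adjusted p = 0.00753) and by 2.49 ± 0.40 against the uterus (adjusted p = 0.00648). It read 2.28, 2.36 and 3.08 in ERBOE lesions, 0.24, -0.18 and -0.22 in ERBOE eutopic endometrium and 0.50, 0.09 and -0.36 in the ERBOE uterus, without overlap. In PRCre lesions it read 1.56, 2.54 and 0.84, and replicates 2 and 3 were its highest and lowest, as for Adrb3. Grk5, a kinase that phosphorylates activated receptors and so desensitises them, rose by 1.23 ± 0.23 (adjusted p = 0.0231) and by 1.14 ± 0.23 (adjusted p = 0.026). It read -0.54, -1.30 and -0.84 in ERBOE lesions, and the ERBOE eutopic and uterus arrays all lay between -2.34 and -1.86.

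Pck1, the cyclic AMP-responsive gene of phosphoenolpyruvate carboxykinase, which serves glyceroneogenesis in fat, rose by 4.64 ± 0.91 against eutopic endometrium (adjusted p = 0.0299). It read 1.24, 1.98 and 2.52 in ERBOE lesions and -1.996, -2.28 and -3.90 in ERBOE eutopic endometrium; the PRCre lesions spread from -1.40 to 2.75, again with replicate 2 highest and replicate 3 lowest. Pde3b, the phosphodiesterase through which insulin lowers cyclic AMP in adipocytes, rose by 1.45 ± 0.25 against the uterus (adjusted p = 0.0114), at 0.58, 0.78 and 1.30 against -0.71, -0.62 and -0.36. Chga, the chromogranin of secretory granules, was at least 4.41-fold higher in ERBOE lesions than in the ERBOE uterus (adjusted p = 0.0358), where no array was well above background. It read -2.09, -3.16 and -2.63 in these lesions and -3.36, -1.35 and -4.02 in PRCre lesions. The white adipocyte markers, whose levels are given above, were high on the same lesion arrays, and their part in these differences was not tested.

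In the genotype comparisons the listed genes with the smallest p-values did not pass. In the uterus they were Crem, a cyclic AMP-responsive repressor and activator gene (-1.23 ± 0.36, adjusted p = 0.371), Prkcb, a protein kinase C (1.24 ± 0.38, adjusted p = 0.381), and Rgs5, a regulator of G-protein signalling in pericytes (-1.29 ± 0.41, adjusted p = 0.392). In eutopic endometrium they were Rgs4, Slc29a4 and Akap5, each with an adjusted p of 1: Rgs4 differed by 1.74 and Slc29a4, a monoamine transporter, by 1.51, and Akap5, an anchor of protein kinase A, was at least 1.13-fold higher in ERBOE. In lesions they were Grk3, another receptor kinase (-0.93 ± 0.28, adjusted p = 0.908), Plcb2, a phospholipase C (-1.05 ± 0.41, adjusted p = 0.993), and Grk5 (0.56 ± 0.23, adjusted p = 0.993). In PRCre lesions against eutopic endometrium they were Chga, at least 3.53-fold higher (adjusted p = 0.677), Pck1 (2.72 ± 0.91, adjusted p = 0.937) and Grk5 (0.69 ± 0.23, adjusted p = 0.946), each of which was called in at least 1 comparison in ERBOE.

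The nerve and ganglion list, 8 genes tested of 12, had group means of -1.60 in the ERBOE uterus, -0.85 in the PRCre uterus and between these elsewhere. In the uterus 1 of its 8 genes was higher in ERBOE. At an unadjusted p under 0.05 by limma 2 were lower there, beside 9.88% of all features in either direction. No gene of the list was called in any of the 12 comparisons by limma's adjusted p, where 0% to 1.24% of all features were called. Phox2a, a factor that defines noradrenergic neurons, was well above background on no array. The macrophage list, 8 genes, had means of 3.53 in PRCre lesions and 3.56 in ERBOE lesions beside 2.07 to 2.49 in the other groups, with none of its genes called. The uterine stroma list, 9 genes, had group means of 1.63 in both lesion groups and 2.05 to 2.46 in the others. All 9 of its genes, Hoxa10, Hoxa11, Esr1 and Pgr among them, were well above background on every lesion array; none was called in any comparison, and 0 of 9 in PRCre and 1 of 9 in ERBOE were higher in lesions than in eutopic endometrium. How far these lists bear on the receptor levels was not tested.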

How the data were processed

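Gene expression was measured with 18 one-colour Agilent arrays. The deposited scanner files hold, per the file headers, processed signal intensity from Feature Extraction with a flag for signal well above background, other quality flags and a median foreground and background intensity. The authors' deposited value table holds log2 values centred per probe, as its comparison with the scanner values showed (correlation of centred values 0.9952 to 0.9983 per array; column medians -0.153 to 0.361); the sources used here do not give its normalization. Probe accessions were named through RefSeq (GRCm38.p6), which gave 32994 probes a symbol.

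Here log2 of the processed signal was taken minus the array's 75th percentile over all non-control spots; 4842 outlier spots were left out. Probes well above background on at least 3 arrays were kept, and the brightest stood for a gene, leaving 33185 features (17908 named). limma 3.58.1 in R 4.3.3 fitted the 6 group means to all 18 arrays (lmFit, eBayes; prior degrees of freedom 2.48), with Benjamini-Hochberg adjustment in each of 12 comparisons. The normexp alternative used the median signal, as the files hold no mean signal. Where a probe was well above background on no array of the dimmer group, the fold is a lower bound: the brighter group's mean against, per array, the higher of the dim probe's value and the lowest signal among probes well above background. The scripts were tested on simulated data. Arrays are pools of separate animals, so p-values measure the spread between pools.

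The receptor genes and all lists were chosen with earlier results of these data known. Named genes were every receptor gene, listed pathway genes past the threshold or else those with the 3 smallest p-values in the genotype and lesion-against-eutopic comparisons, the 3 genes with the highest correlation to each receptor gene, and Esr2. Other marker lists were read the same way. The correlation of the deviations of same-numbered arrays from their group means was over 0.1 in all 3 pairs for ERBOE against PRCre uterus (0.395, 0.306 and 0.441; these arrays also share slides) and for PRCre lesions against eutopic endometrium (0.334, 0.226 and 0.133), so the numbers may pair the arrays there. In the other comparisons of 2 groups at least 1 pair lay below 0.1, and over all 27 pairs 13 lay above it.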

Additional observations from a re-analysis of the deposited data

How the results depend on the processing

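Adrb3 in ERBOE lesions passed against both other tissues under each of 30 alternatives that did not replace the brighter probe by the other, with differences of 4.31 to 5.78 from eutopic endometrium (adjusted p 0.00039 to 0.048) and 4.48 to 5.57 from the uterus (adjusted p 0.000121 to 0.0193). With the other Adrb3 probe, an alternative chosen after seeing the data, neither passed (adjusted p by limma 0.0771 and 0.064). Counts of receptor genes past the threshold in ERBOE lesions against eutopic endometrium went from 1 to 2 with normexp (Adra1d added) and to 3 with array weights (Adra1d and Adra2c added), and ranged from 1 to 2 when one array was left out. Against the ERBOE uterus they went from 1 to 2 with normexp (Adra1b added) and to 4 with array weights (Adra1b, Adra1d and Adra2c added), and from 1 to 2 when one array was left out. In PRCre lesions against the uterus the count went from 0 to 1, always Adrb3, with normexp, quantile normalization, a trended and robust variance, and array weights, and ranged from 0 to 1 when one array was left out. The other 9 counts stayed at 0 in every alternative run. With a replicate block Adrb3 stayed called at 5.04 (adjusted p 0.00933) and 5.43 (adjusted p 0.00485), and the replicate block changed no other call; where the numbers may pair the arrays it gave Adra2c 2.98 between the uterus groups (adjusted p 0.267) and Adrb3 3.19 between PRCre lesions and eutopic endometrium (adjusted p 0.376). Under normexp 18 of the followed receptor differences moved by over 1.5 times, and all 18 became smaller. Of 25 receptor differences followed, those with an unadjusted p under 0.05, none changed sign under the 31 alternatives; of the other 71, 45 did under at least 1 of those 30, none of them called. The cause of these changes was not tested. Where a probe is near background, its signal limits what the arrays can show. This holds for Adra1a, Adra1d and Adrb1, for Adra1b in the PRCre uterus, and for Adra2c in lesions and the PRCre uterus.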
